A study of Mus musculus with 23 samples.

Results

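The genes described here are 10 members of the Bcl2 family, which sets whether the mitochondrial route to cell death is held shut or opened: Bcl2, Bcl2l1, Bcl2l2, Mcl1 and Bcl2a1b on the survival side, the pore-forming effectors Bax and Bak1, and the BH3-only death genes Bid, Bcl2l11 and Bbc3. They were chosen by gene symbol, and all 10 were found among the 35825 genes of the table and passed the filter on low values that left 17102 genes for testing. RNA was sequenced from live single GFP+ cells sorted from the mouse retina as microglia, in 23 libraries. Per the study's methods, retinas of several mice were pooled for its sorts. The labels do not state the pooling of each library, and a legend of the study gives n = 4 mice for expression in these cells. CX3CR1-GFP mice (WT) carry GFP in place of 1 allele of the chemokine receptor Cx3cr1. They were compared with CX3CR1-GFP mice also homozygous for a mutant allele of Spp1 (KO), which encodes the secreted protein osteopontin. Controls, called naive here, gave 4 WT and 4 KO libraries. Others were taken at 4 weeks after elevation of the intraocular pressure by microbeads injected into the anterior chamber (IOP, 4 WT and 4 KO). The last were taken at day 7 after optic nerve crush (ONC, 3 WT and 4 KO). The labels of the naive libraries read control only. Control mice of the microbead model received saline per the study's methods, and whether these libraries come from such mice or from untreated ones is not stated. GFP marks every cell that transcribes Cx3cr1, macrophages included, and all 6 groups carry the GFP allele.

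The survival proteins (BCL2, BCL-XL from Bcl2l1, BCL-W from Bcl2l2, MCL1 and BCL2A1) bind and restrain the effectors BAX and BAK1. Stress or death-receptor signals raise or activate BH3-only proteins such as BID, BIM (from Bcl2l11) and PUMA (from Bbc3), which occupy the survival proteins or switch on the effectors, and the effectors then form pores in the outer mitochondrial membrane, cytochrome c leaves and caspases are activated. Much of this control acts on the proteins, so transcript levels describe the supply of each member and not whether cells were dying. Bcl2a1 is mainly a gene of blood and immune cells, and the mouse carries several nearly identical copies of it.

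A library held 22180480 to 30296094 reads on genes (median 26914869), and replicates of a group correlated at 0.953 to 0.984 (Pearson, log2 values over genes). A count of 0 allows up to 3 reads, which is 2.41 to 4.03 normalized counts, and this limit covers counting error only. Of the 12 libraries labelled KO, 6 held over 100 normalized counts of Spp1, up to 6811 (KO naive 1, KO IOP 2 and 4, KO ONC 1, 2 and 4). By this value they go against their label. KO naive 2 and 4 held 53.1 and 81.6, and the remaining libraries at most 25.5 (KO IOP 1). The gene totals do not show which exons the Spp1 reads came from. KO is used below as the label only. Members called within libraries labelled KO or in the interaction with IOP elevation are also given without those 6. This leaves 3 naive, 2 IOP and 1 ONC library, with the lone ONC library assumed to vary like the others. Differences in the direct comparisons of the genotypes and in other genes of the pathway are not given without those 6. The 12 genes of the microglia marker list were all detected in every group, and their summed share of a library was 1.89 to 3.62% in the 11 WT libraries. In KO naive 1, 2 and 4 it was 1.20, 1.48 and 1.63%, beside a rod photoreceptor share of 3.24, 3.44 and 3.82%, whereas KO naive 3, with 3.51% and 1.22%, resembled the WT naive libraries (2.86 to 3.62% microglia and 1.52 to 1.86% rods). The neutrophil and T cell lists stayed at or under 0.0106% of every library. Other lists fell without overlap in WT ONC against WT naive: border macrophages and monocytes (8 genes, median 0.0838% to 0.0102%), bipolar and amacrine cells (8 genes, 0.147% to 0.0263%) and retinal ganglion cells (9 genes, 0.0445% to 0.00782%). In KO ONC against KO naive, rods (median 3.34% to 0.865%) and bipolar and amacrine cells (0.190% to 0.0520%) fell without overlap. So did retinal ganglion cells (0.0586% to 0.00712%) and endothelium and pericytes (0.0195% to 0.0061%), whereas border macrophages and monocytes overlapped. The part of these lists in the results after ONC was not tested beyond the covariates given below. The libraries also differed in Y chromosome transcripts, summed over 4 genes, although the labels give no sex. These held 0.000367 to 0.000636% of the KO IOP libraries and 0.000701% of KO naive 3, against 0.0155 to 0.0236% of KO naive 1, 2 and 4, 0.00927 to 0.0166% of KO ONC and 0.00532 to 0.0195% of WT IOP, and both levels occurred in WT naive and WT ONC. In bulk libraries, fewer cells of a type and less RNA per cell cannot be told apart.

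Bcl2a1b is the member whose value is hardest to assign, which its sequence shows. It lies at chr9:89199209-89207827 (GRCm38, plus strand), and Bcl2a1a and Bcl2a1d lie near it at chr9:88956900-88962419 (plus strand) and chr9:88723285-88731914 (minus strand). The first 120 coding bases of each copy, all within 1 exon, are shown 5′ to 3′ with the positions that differ among the 3 copies in capitals, at chr9:89199360-89199479, chr9:88957051-88957170 and chr9:88731600-88731719, because this is where the copies differ most.
Bcl2a1b: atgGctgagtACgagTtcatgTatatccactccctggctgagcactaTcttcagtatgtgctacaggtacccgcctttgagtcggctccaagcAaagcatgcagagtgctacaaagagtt
Bcl2a1a: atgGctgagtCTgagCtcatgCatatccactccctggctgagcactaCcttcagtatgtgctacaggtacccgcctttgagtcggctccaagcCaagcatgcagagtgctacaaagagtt
Bcl2a1d: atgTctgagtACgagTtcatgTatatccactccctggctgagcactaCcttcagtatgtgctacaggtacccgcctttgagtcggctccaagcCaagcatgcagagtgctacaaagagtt
Counted from 1 at the start codon, Bcl2a1a differs from Bcl2a1b here by A11C, C12T, T16C, T22C, T48C and A94C, and Bcl2a1d by G4T, T48C and A94C. Over all 516 coding bases, 505 are the same in Bcl2a1b and Bcl2a1a (97.9%), 510 in Bcl2a1b and Bcl2a1d (98.8%), and only 12 positions differ among the 3. Of the 787 stretches of 31 bases in the Bcl2a1b transcript, 88.8% also occur in a transcript of another gene. The division of reads among the copies is therefore uncertain, and results on Bcl2a1b are also given for the 3 copies summed.

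The other members are easier to tell apart. No such stretch of Bbc3 is shared, and under 1% are in Bcl2l1, Mcl1 and Bcl2l11. The share is 6.21% in Bcl2 (mostly with D630008O14Rik, whose exons overlap on the other strand and which was not analysed here), 11.1% in Bax (mostly with the same-strand readthrough gene Gm45808) and 12.8% in Bcl2l2 (mostly with the readthrough gene Gm20521, which was at 0 in 21 of the 23 libraries). It is 16.9% in Bid and 20.4% in Bak1, where exons of Bcl2l13 and Ggnbp1 overlap on the other strand, and as the sources used here do not state a strand for the counting, reads of these 3 pairs cannot be told apart there. Where Bid was called, Bcl2l13 was not called but partly moved the same way: 0.29 (adjusted p = 0.408) after IOP elevation and -0.44 (adjusted p = 0.146) after ONC in libraries labelled KO, and 0.80 (adjusted p = 0.108) for the interaction of genotype and IOP.

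The region just upstream of Bcl2a1b, the survival gene that moved most, was searched for short motifs of factors active in myeloid cells and is shown here. RefSeq promoters (GRCm38.p6, taken here as the 250 bases before each start) matched all 10 members. The 186 bases at chr9:89199023-89199208, plus strand, lie before both the RefSeq and the GENCODE start of Bcl2a1b, with TGANTCA (a loosened AP-1 site, which reads the same on both strands) and GAGGAAGT (the core bound by PU.1 and other ETS factors) in capitals.
Bcl2a1b upstream: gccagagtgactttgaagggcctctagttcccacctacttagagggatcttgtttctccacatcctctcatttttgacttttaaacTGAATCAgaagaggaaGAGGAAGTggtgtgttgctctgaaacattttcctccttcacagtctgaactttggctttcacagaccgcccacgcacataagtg
TGANTCA begins 164 and GAGGAAGT 148 bases before the RefSeq start, and the matches do not overlap. The middle base of the first match is A, whereas the usual AP-1 site has C or G there, so it is a variant of that site. Searched on both strands, TGANTCA was in the promoters of 1 of the 10 members (6.75% of 32851 promoters) and GAGGAAGT in those of 2, Bcl2a1b and Bak1 (2.44% of all). Bcl2a1a and Bcl2a1d hold both motifs too, 120 and 104 bases before the start in Bcl2a1a and 114 and 104 in Bcl2a1d. For p53, a known regulator of Bax and Bbc3, only half-sites with the core CATG were searched (RRRCATGYYY, R for A or G, Y for C or T). This form was in 0 of the 10 (1.63% of all). Half-sites with another core were not searched, so their absence is not shown. A match is a run of letters and not a bound site.

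The immune-cell survival gene Bcl2a1b and Bcl2l1 stood highest, the other three survival genes came in the middle and lower part of the order, and Bbc3 and Bak1 were last. Per kilobase of exon, the median normalized count over the 23 libraries was 3198 for Bcl2a1b and 875 for Bcl2l1, followed by 629 for Bax, 297 for Bid and 260 for Mcl1. The lower levels per kilobase were 88.9 for Bcl2l11, 37.6 for Bcl2, 36.8 for Bcl2l2, 16.0 for Bbc3 and 5.53 for Bak1. Bax thus stood far above Bak1, the other effector, which ranged from 1.63 to 37.6 normalized counts, partly at or under the limit for a count of 0. The members also varied unequally: the highest library was 1.93 times the lowest for Bcl2l1, 3.14 for Bid, 3.81 for Mcl1, 5.44 for Bax and 16.4 for Bcl2a1b.

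**Figure D1:**
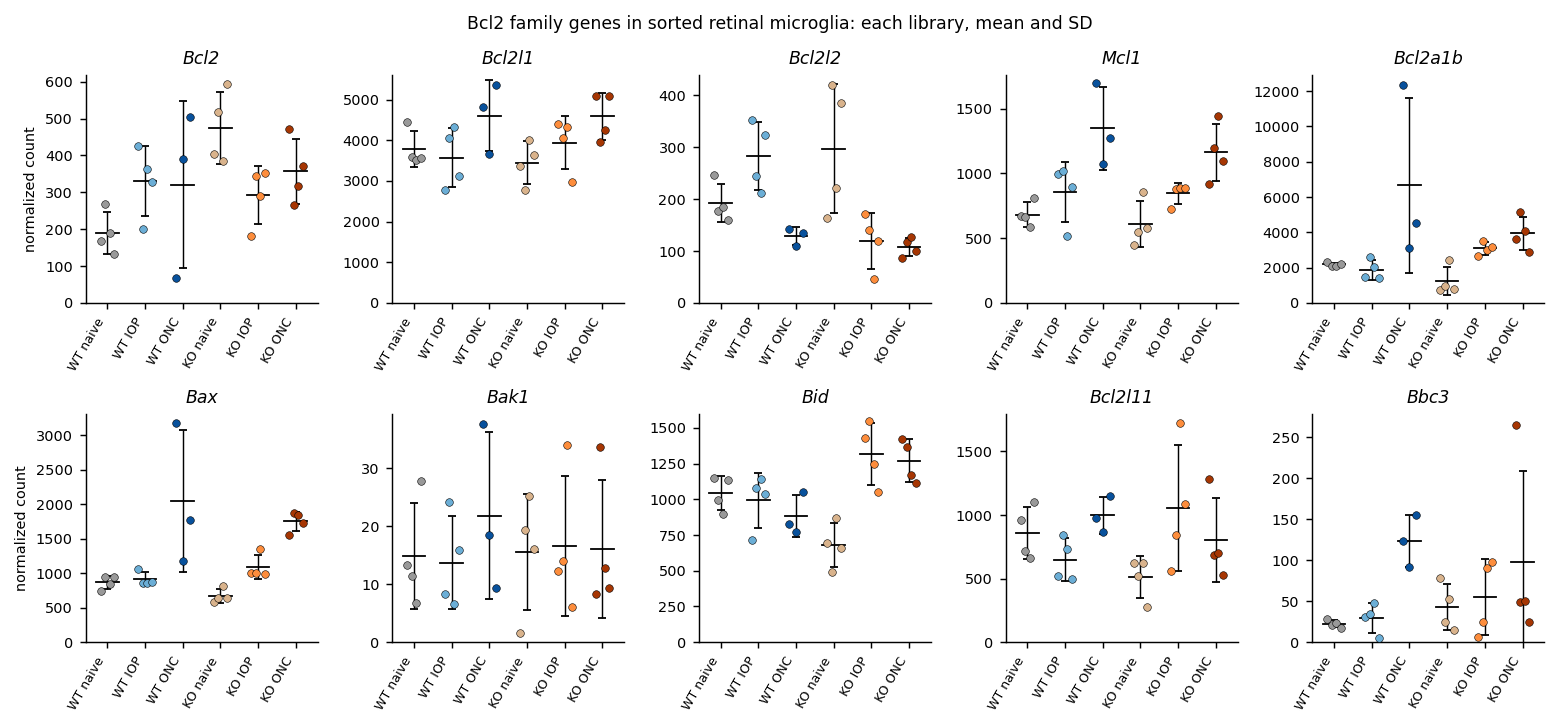
Normalized counts (linear axes from 0) of the 10 members in each of the 23 libraries, by group on the x axis; points are libraries, the horizontal line the group mean and the bar its SD (cut at 0 where it would pass below). Bax and Mcl1 sit highest in both ONC groups, Bid highest in the groups labelled KO IOP and KO ONC, and the 3 WT ONC libraries are widely spread for Bcl2a1b.

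The 6 groups differed for 5 of the 10 members, Bcl2l2, Mcl1, Bax, Bid and Bcl2a1b (limma's F test on log2(normalized count + 1), adjusted p 1.23e-04 to 0.00892), where 31.4% of all tested genes passed. In the pairwise comparisons calls required limma's p, after Benjamini-Hochberg adjustment, to be under 0.05 and the log2 difference to exceed 0.58 in size, and every difference below is on the log2(normalized count + 1) scale, which understates changes of low genes. After ONC in WT, Mcl1, Bax and Bcl2a1b rose, 3 of 10 members against 7.55% of all genes called higher, and 0 fell (10.5% of all; 18.1% were called in either direction). After IOP elevation in WT 0 of 10 changed (1.56% of all genes called), and edgeR and DESeq2 also called 0. At an unadjusted p under 0.05 there were 0 members (13.3% of all genes). Among libraries labelled KO, Bax, Bid and Bcl2a1b rose and Bcl2l2 fell after IOP elevation (5.06% of all genes called higher and 2.81% lower, 7.88% together), and Mcl1, Bax, Bid and Bcl2a1b rose and Bcl2l2 fell after ONC (12.7% higher and 11% lower, 23.6% together). With the mean of the Y chromosome list as a covariate all 4 calls after IOP elevation in libraries labelled KO were lost (0.83, adjusted p = 0.172 for Bax; 0.92, adjusted p = 0.141 for Bid; 1.63, adjusted p = 0.144 for Bcl2a1b; -1.09, adjusted p = 0.239 for Bcl2l2), while the 3 after ONC in WT and the 5 after ONC in libraries labelled KO were kept. The median difference of the 10 members was -0.01 after IOP elevation and 0.43 after ONC in WT, and 0.38 and 0.73 in libraries labelled KO, beside -0.02, -0.10, -0.12 and -0.12 over all genes tested. The groups did not overlap for 5 members after ONC in WT (26.4% of all genes), 0 after IOP elevation in WT (13.8%), and 4 and 5 in libraries labelled KO after IOP elevation and ONC (11.7% and 26.5%). The comparisons within a genotype share their naive libraries.

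Of the survival genes, Bcl2a1b, which encodes a short-lived survival protein of immune cells, moved most. Its normalized counts were 2326, 2103, 2115 and 2178 in the WT naive libraries, 1473, 2612, 2019.8 and 1398 in WT IOP and 12350.1, 3122 and 4511 in WT ONC. All 3 ONC libraries lay above every naive library, but WT ONC 1 was far above the other two. The rise after ONC was 2.56-fold (1.36 ± 0.38 SE, adjusted p = 0.0161). Without WT ONC 1 it was 0.78 (adjusted p = 0.179), no longer called. The call was also lost with the mean of the rod list as a covariate, 0.78 (adjusted p = 0.0589), and when the WT ONC and WT naive libraries were fitted alone, 1.36 (adjusted p = 0.0778). In libraries labelled KO the counts were 754, 959, 2405 and 799.7 in naive, 2632, 3502, 3015 and 3187 in IOP and 3631, 5173, 4054 and 2902 in ONC. KO naive 3 stood with the WT naive libraries and the other three naive libraries far below, and both injured groups lay above all 4. Bcl2a1b rose 2.82-fold after IOP elevation (1.5 ± 0.35 SE, adjusted p = 0.0205) and 3.55-fold after ONC (1.83 ± 0.35 SE, adjusted p = 7.75e-04) among them. The call after IOP elevation was lost without KO naive 1, 2 or 4 (differences 1.32 to 1.44, adjusted p 0.0684 to 0.0841). The naive libraries labelled KO also differed in marker shares, as given above. With the rod covariate the differences were 0.67 (adjusted p = 0.468) and 0.69 (adjusted p = 0.293), and with the microglia list 0.32 (adjusted p = 0.831) and 0.47 (adjusted p = 0.497). Without the 6 libraries whose Spp1 goes against the label they were 1.20 (adjusted p = 0.262) and 1.72 (adjusted p = 0.176).

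The copies followed one another. Summed, the 3 copies differed by 1.48 (adjusted p = 0.0105) after ONC in WT, and by 1.5 (adjusted p = 0.0213) and 1.89 (adjusted p = 6.55e-04) after IOP elevation and ONC in libraries labelled KO. Bcl2a1a was at 704, 669, 532 and 633 in WT naive and 4389, 883 and 1968 in WT ONC, and Bcl2a1d at 494, 377, 441 and 526 and 3264, 799 and 1406. Both were called higher after ONC in WT (log2 differences 1.64 and 1.76), as Bcl2a1b was, and WT ONC 1 was again the highest library. Of the 31-base stretches of each copy, 79.6 to 89.1% also occur in another gene. The 3 values may therefore draw on the same reads, and their agreement is not a separate result.

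**Figure D2:**
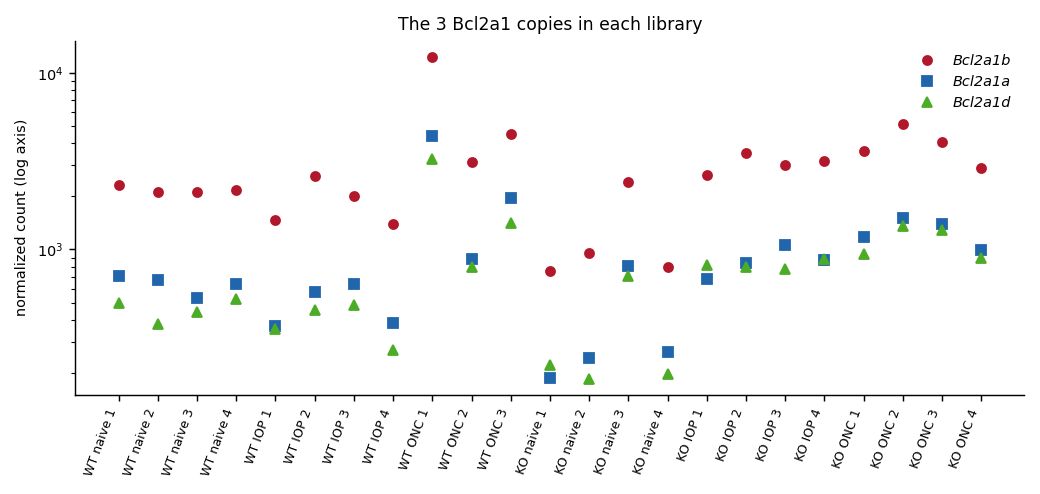
Normalized counts (log axis) of Bcl2a1b, Bcl2a1a and Bcl2a1d in each of the 23 libraries (x axis); each symbol is 1 gene in 1 library. Bcl2a1b is the highest of the 3 in every library, all 3 peak in WT ONC 1, and all 3 are low in KO naive 1, 2 and 4 but not in KO naive 3.

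Mcl1, whose unstable protein is lost within hours when its supply stops, rose after nerve crush in both genotypes. Its counts were 669, 664, 585 and 811 in WT naive, 993, 1018, 519.6 and 893 in WT IOP and 1700.5, 1072 and 1270.4 in WT ONC. The WT ONC libraries were all above the naive ones, while WT IOP overlapped them. In libraries labelled KO the counts were 447, 546, 858 and 582 in naive, 725, 879, 889 and 889 in IOP and 916, 1199, 1443 and 1099.8 in ONC, and again only ONC lay wholly above naive. Mcl1 rose 1.95-fold after ONC in WT (0.96 ± 0.25 SE, adjusted p = 0.00946) and 1.94-fold in libraries labelled KO (0.96 ± 0.23 SE, adjusted p = 0.00407). The WT rise was 0.78 (adjusted p = 0.0746) without WT ONC 1. The rise in libraries labelled KO was 0.53 (adjusted p = 0.403) with the rod covariate, 0.55 (adjusted p = 0.432) with the microglia covariate and 1.15 (adjusted p = 0.156) without the 6 libraries. After IOP elevation the differences were 0.29 in WT and 0.51 in libraries labelled KO (adjusted p = 0.632 and 0.153), neither called.

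Bcl2l2, the gene of BCL-W, a survival protein best known in neurons and testis, was the member that fell. Its counts were 164, 419.8, 221 and 385 in naive libraries labelled KO, 172, 139.6, 46.4 and 119 after IOP elevation and 87.4, 117, 126 and 101 after ONC. All ONC libraries were below the naive ones, and IOP and naive overlapped in that KO IOP 1 lay above KO naive 1. Bcl2l2 was lower after IOP elevation (-1.36 ± 0.37 SE, adjusted p = 0.0320) and after ONC (-1.36 ± 0.37 SE, adjusted p = 0.00970). In KO naive 2 and 4, the libraries with the highest Bcl2l2, the rod share was also high. KO naive 1 had a high rod share too, but the lowest Bcl2l2 of these naive libraries (164). With the rod covariate the falls were -1.11 (adjusted p = 0.440) and -1.03 (adjusted p = 0.346). They were -1.87 (adjusted p = 0.139) and -1.37 (adjusted p = 0.268) without the 6 libraries, and -0.96 (adjusted p = 0.101) after IOP elevation without KO IOP 3, the lowest library of all. The call after IOP elevation was also lost without KO naive 2, KO naive 4 or KO IOP 4 (adjusted p 0.0520 to 0.126). In WT the counts were 246, 178, 186 and 161 in naive, 353, 245, 212 and 324 in IOP and 142, 109 and 135 in ONC. There ONC lay below naive without overlap, but the difference (-0.57 ± 0.40 SE, adjusted p = 0.328) was not called, and neither was that of IOP (0.54 ± 0.37 SE, adjusted p = 0.562).

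Bcl2l1 and Bcl2, the other two survival genes, passed no pairwise test with limma. Bcl2l1, the gene of BCL-XL, was the steadiest member: group means ranged from 3449 ± 522 (SD, n = 4, KO naive) to 4607 ± 872 (SD, n = 3, WT ONC), and no group stood apart from the next in order. Its 95% intervals were -0.46 to 0.27 after IOP elevation and -0.12 to 0.67 after ONC in WT, and -0.18 to 0.55 and 0.05 to 0.78 in libraries labelled KO. Bcl2, the founding survival gene, had its lowest group mean in WT naive (168, 268, 189 and 133) and its highest in naive libraries labelled KO (403, 517, 384 and 593), which did not overlap (1.34 ± 0.44 SE, adjusted p = 0.132 with limma; DESeq2 on recovered reads called it, 1.32, adjusted p = 0.0406). In WT it was 425, 200.4, 364 and 329 after IOP elevation and 67.1, 390.1 and 504 after ONC, the latter spread from the lowest Bcl2 value of the series to one of the higher. Libraries labelled KO had 182, 345, 289.7 and 352 after IOP elevation and 472, 266, 316 and 372 after ONC, within the range of the injured WT libraries.

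Among the effectors, Bax, whose protein moves from the cytosol to mitochondria on activation, rose after nerve crush in both genotypes with the smallest adjusted p of any member. Its counts were 742, 939.7, 840.3 and 944 in WT naive, 1067, 863, 866 and 867 in WT IOP and 3183, 1182 and 1778 in WT ONC. The crush libraries did not overlap with naive, although WT ONC 2 was much nearer to them than WT ONC 1. In libraries labelled KO the counts were 585, 635, 819.5 and 643 in naive, 1005, 1002, 1348 and 991 in IOP and 1562, 1877, 1839.8 and 1734 in ONC, 3 levels that did not overlap. Bax rose 2.18-fold after ONC in WT (1.13 ± 0.23 SE, adjusted p = 0.00176) and 2.63-fold in libraries labelled KO (1.39 ± 0.21 SE, adjusted p = 1.06e-04). With the rod covariate these were 0.86 (adjusted p = 0.00778) and 0.88 (adjusted p = 0.0456), and without WT ONC 1 the WT rise was 0.75 (adjusted p = 0.0174). The WT call was lost when the WT ONC and WT naive libraries were fitted alone (1.13, adjusted p = 0.0630). The rise in libraries labelled KO was 0.92 (adjusted p = 0.0760) with the microglia covariate and 1.40 (adjusted p = 0.0956) without the 6 libraries. The call after IOP elevation in libraries labelled KO (0.69 ± 0.21 SE, adjusted p = 0.0483) lay close to the threshold: it was lost in 7 of the 8 fits that left out 1 of its libraries, and was 0.32 (adjusted p = 0.710) with the rod covariate and 0.74 (adjusted p = 0.272) without the 6 libraries. In WT the difference after IOP elevation was 0.08 (95% interval -0.36 to 0.52). Bak1, the effector that resides on mitochondria, had no unadjusted p under 0.05 in any comparison. Its intervals were as wide as -1.19 to 2.17 (ONC in WT), so sizeable changes could have been missed.

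Of the BH3-only genes, Bid, whose protein is cut by caspase-8 and carries a death-receptor signal to mitochondria, was called only among libraries labelled KO in the tests within a genotype. Its counts there were 696, 493, 866 and 660.4 in naive, 1429, 1546, 1245 and 1052 in IOP and 1426, 1365, 1173 and 1113 in ONC. Every injured library lay above every naive one. Bid rose 1.96-fold after IOP elevation (0.97 ± 0.19 SE, adjusted p = 0.0101) and 1.90-fold after ONC (0.92 ± 0.19 SE, adjusted p = 0.00143). With the rod covariate the differences were 0.74 (adjusted p = 0.230) and 0.60 (adjusted p = 0.215), and without the 6 libraries 1.02 (adjusted p = 0.139) and 0.84 (adjusted p = 0.223). The rise after IOP elevation was 0.83 (adjusted p = 0.0558) without KO naive 2, the lowest library. In WT the counts were 1147, 993, 897 and 1137 in naive, 713, 1079.6, 1142 and 1036 in IOP and 825, 773 and 1053 in ONC. These overlapped throughout, and neither difference was called (-0.09 ± 0.19 SE, adjusted p = 0.890 after IOP elevation, and -0.24 ± 0.21 SE, adjusted p = 0.424 after ONC).

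Bcl2l11 and Bbc3, the genes of BIM and PUMA, were not called. Bcl2l11 was 625, 520.3, 623 and 280.5 in naive libraries labelled KO and 560.0, 841, 1724 and 1085 after IOP elevation, 1 of which overlapped with naive (0.99 ± 0.33 SE, adjusted p = 0.0622; DESeq2 on recovered reads 1.04, adjusted p = 0.0278). Its other injury differences were -0.41 and 0.24 in WT after IOP elevation and ONC, and 0.63 after ONC in libraries labelled KO (adjusted p = 0.633, 0.674 and 0.160). Bbc3, a direct target of p53, was 28.4, 20.4, 23.6 and 17.6 in WT naive, 31.1, 33.9, 48.1 and 5.32 in WT IOP and 123, 92.1 and 156 in WT ONC. The crush libraries were all far above the naive ones, but in this low and scattered gene the difference missed the threshold (2.39 ± 0.89 SE, adjusted p = 0.0636; DESeq2 2.46, adjusted p = 0.0197). In libraries labelled KO, Bbc3 was 78.4, 24.9, 52.3 and 15.3 in naive and 265, 48.9, 50.4 and 25.0 in ONC, and 1 library stood alone in the latter.

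**Figure D3:**
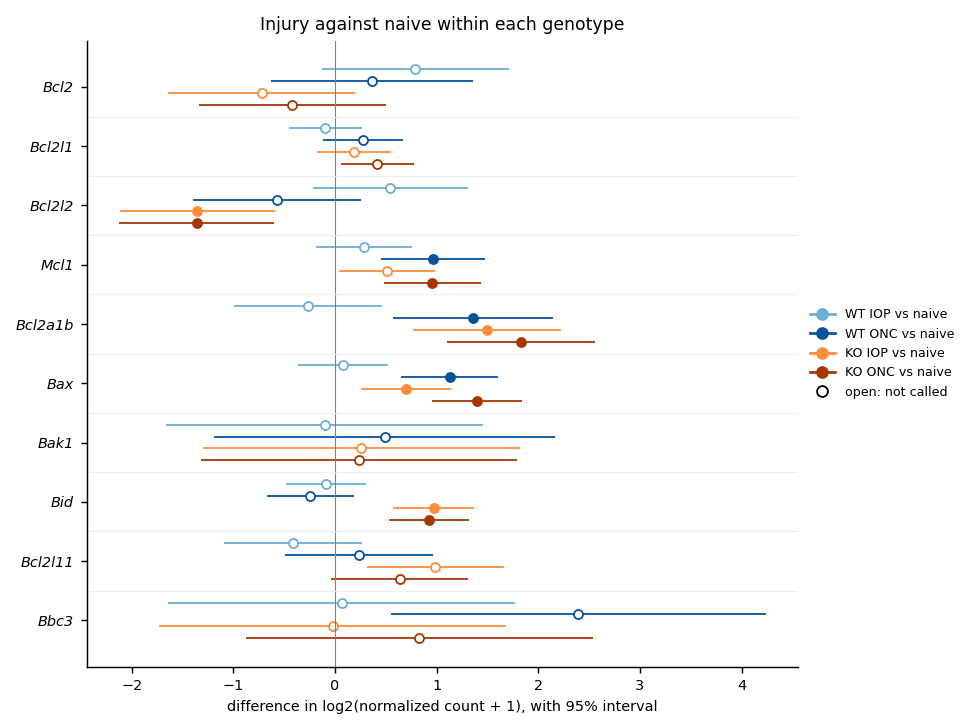
Difference of each member between injured and naive libraries of the same genotype, in log2(normalized count + 1), with its 95% interval (x axis); filled points were called and open ones were not. Points for WT IOP are all open, Mcl1, Bcl2a1b and Bax are filled for ONC in both genotypes, and Bid and Bcl2l2 are filled only for groups labelled KO.

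Comparing genotypes directly, 0 of 10 members differed between libraries labelled KO and WT in naive retinas (0.409% of all genes called), after IOP elevation (2.11%) or after ONC (0.0877%). At an unadjusted p under 0.05 there were 4, 3 and 1 members (15.6%, 21.1% and 9.36% of all genes). edgeR called 0 in each, and DESeq2 called 2 in naive retinas, 1 after IOP elevation and 0 after ONC. The groups did not overlap for 3, 2 and 1 members (9.6%, 13% and 6.32% of all genes). In naive retinas libraries labelled KO had higher Bcl2, as given above, and lower Bid (-0.64 ± 0.19 SE, adjusted p = 0.0995), Bcl2l11 (-0.78 ± 0.33 SE, adjusted p = 0.245) and Bcl2a1b (-1.0 ± 0.35 SE, adjusted p = 0.156), none of them called by limma. Without KO naive 3, the library with WT-like marker shares, Bid was -0.77 (adjusted p = 0.0154) and Bcl2a1b -1.39 (adjusted p = 0.00721), both called. DESeq2 called Bid besides Bcl2 (-0.62, adjusted p = 0.0395), and with the microglia covariate Bcl2a1b was 0.03 (adjusted p = 0.994). After IOP elevation Bcl2l2 was lower in libraries labelled KO without overlap (-1.36 ± 0.37 SE, adjusted p = 0.0544; DESeq2 -1.25, adjusted p = 0.0122), and Bcl2a1b was 0.76 ± 0.35 SE, adjusted p = 0.221, also without overlap. After ONC the 4 libraries labelled KO had Bid above all 3 WT libraries (0.53 ± 0.21 SE, adjusted p = 0.423). For Bax and Mcl1 the intervals of KO minus WT after ONC were -0.59 to 0.37 and -0.71 to 0.31.

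**Figure D4:**
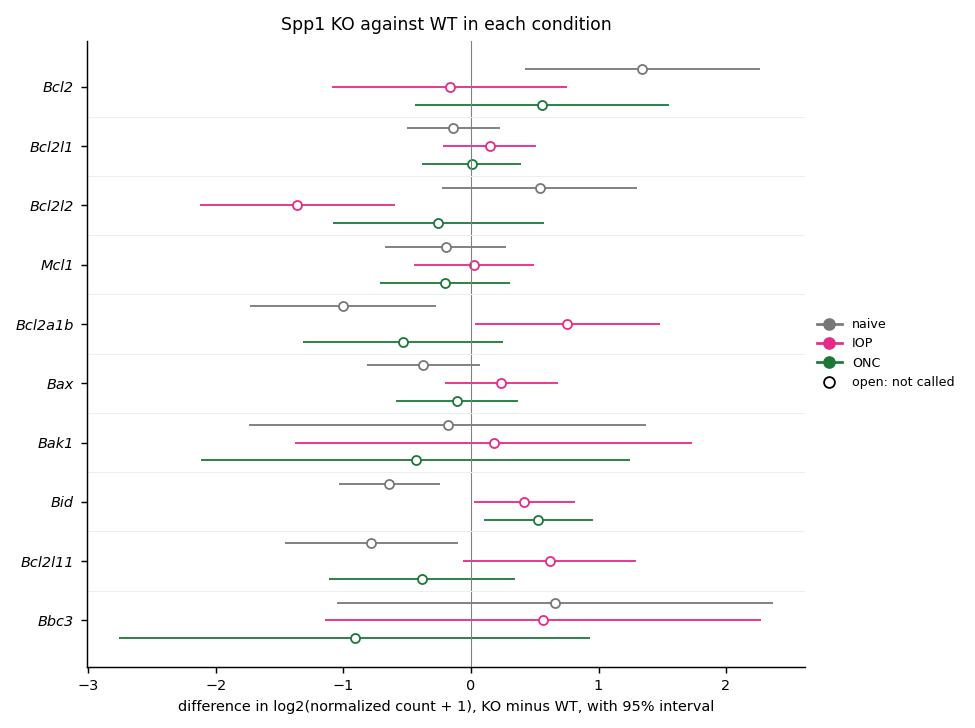
Difference of each member between libraries labelled KO and WT in naive, IOP and ONC retinas, in log2(normalized count + 1), with its 95% interval (x axis); open points were not called. No point is filled, Bcl2 lies above 0 and Bid, Bcl2l11 and Bcl2a1b below 0 in naive retinas, and Bcl2l2 lies below 0 after IOP elevation.

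The response to IOP elevation itself differed between the genotypes for 3 of 10 members, 2 higher and 1 lower in libraries labelled KO (interaction term, where 4.85% of all genes were called higher and 3.9% lower, 8.75% together). Bid differed by 1.06 ± 0.27 SE, adjusted p = 0.0206, Bcl2a1b by 1.76 ± 0.50 SE, adjusted p = 0.0313 and Bcl2l2 by -1.90 ± 0.52 SE, adjusted p = 0.0280. In each, the WT difference after IOP elevation and the difference of libraries labelled KO had opposite signs, and the WT difference was not called. The naive libraries labelled KO enter these terms: with the rod covariate they were 0.72 (adjusted p = 0.331) for Bid, 0.54 (adjusted p = 0.621) for Bcl2a1b and -1.54 (adjusted p = 0.316) for Bcl2l2. Without the 6 libraries they were 1.11 (adjusted p = 0.116), 1.46 (adjusted p = 0.210) and -2.41 (adjusted p = 0.0809), and edgeR on recovered reads gave 1.56 (adjusted p = 0.0661) for Bcl2a1b. WT IOP 1 and 4, too, had a lower microglia share (1.89 and 2.09%) and a higher rod share (2.63 and 2.84%) than WT IOP 2 and 3, and lens genes held 0.128 to 0.948% of the WT IOP libraries against at most 0.0188% elsewhere. With the Y chromosome covariate the terms were 1.0 (adjusted p = 0.162), 1.94 (adjusted p = 0.149) and -1.55 (adjusted p = 0.228), none of them called. When 1 of the 16 libraries was left out, the term for Bid kept its call in 14 fits and lost it without WT IOP 1 or KO naive 2 (adjusted p up to 0.0556). Bcl2l2 kept it in 9, and lost it without WT naive 3 or 4, WT IOP 1 or 4, KO naive 2 or 4, or KO IOP 3 (up to 0.0749). Bcl2a1b kept it in only 6, those without WT naive 2, WT IOP 2 or 3, KO naive 3, or KO IOP 1 or 4 (up to 0.0757 in the others). The response to ONC differed for 0 of 10 members (0.0702% of all genes called), with 0 in edgeR and 1 in DESeq2. At an unadjusted p under 0.05 with limma there was 1 member, Bid (1.17 ± 0.28 SE, adjusted p = 0.10), beside 12.4% of all genes.

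Some of the extreme values of called members fell in libraries with extreme marker shares. In KO naive 1, 2 and 4, the libraries with the lowest microglia share, Bcl2a1b, Bax and Bid were at their lowest in the series. In WT ONC 1, with the lowest rod share (0.53%), Bcl2a1b and Bax were at their highest, and in KO naive 2 and 4, with the highest rod shares, Bcl2l2 was at its highest. KO naive 1 also had a high rod share, but its Bcl2l2 (164) was the lowest of the naive libraries labelled KO. KO naive 3 was above the other three naive libraries labelled KO for Bcl2a1b, Bax, Bid and Mcl1. Other libraries followed this only in part. WT IOP 1, with a microglia share of 1.89%, had the highest Bax of its group (1067) but the lowest Bid (713). Bcl2a1b was 1473 and 1398 in WT IOP 1 and 4, against 2612 and 2019.8 in WT IOP 2 and 3. Bcl2l2 was 353 and 324 in WT IOP 1 and 4, against 245 and 212 in WT IOP 2 and 3. In WT ONC 1 Bid was only 825. All 12 genes of the rod list were detected in each group, with group medians from 0.629% (WT ONC) to 3.34% (labelled KO naive). Their part in the results was not tested beyond the covariates above, and a covariate that moves with the groups also removes differences of the groups.

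**Figure D5:**
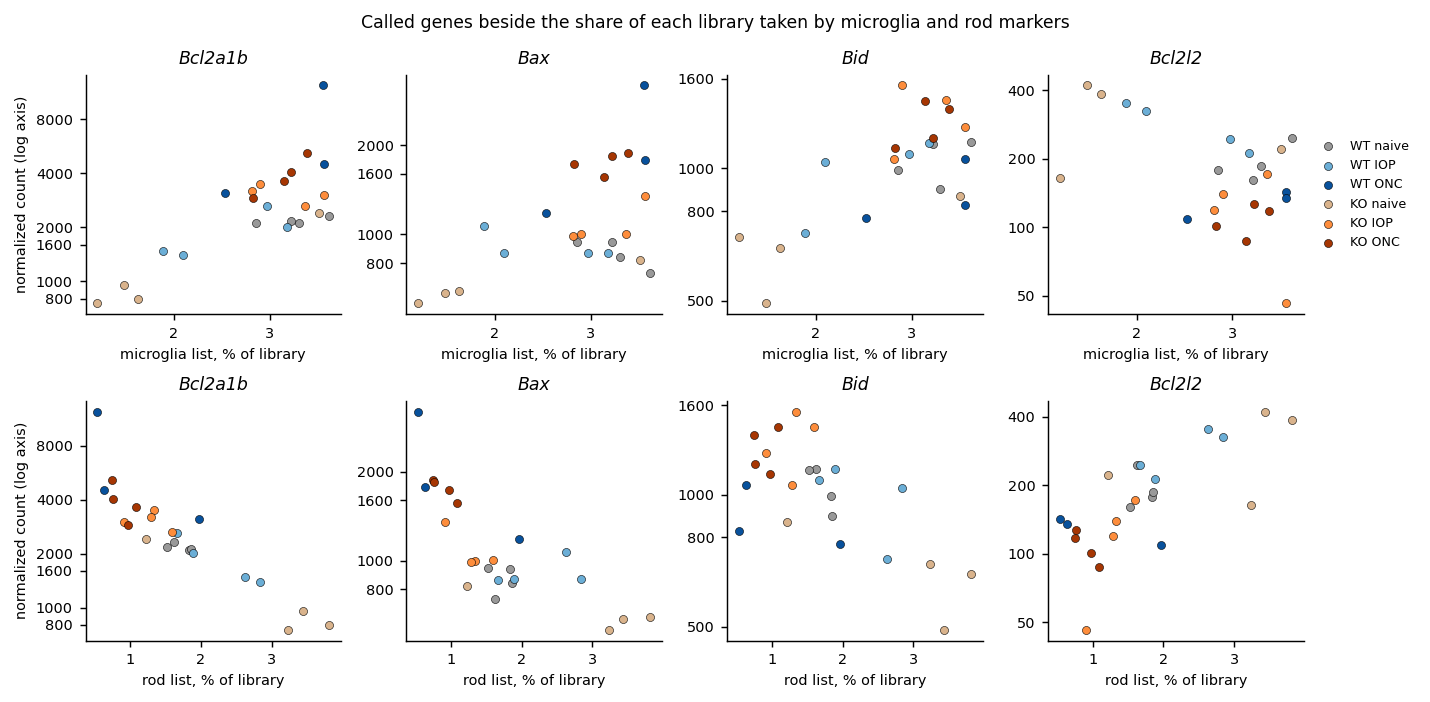
Normalized counts (log axes) of Bcl2a1b, Bax, Bid and Bcl2l2 in the 23 libraries beside the share of the library taken by the 12 genes of the microglia list (upper row, %) or the rod list (lower row, %); each point is 1 library, coloured by group. Bcl2a1b and Bax are lowest where the rod share passes 3%, and the highest Bcl2l2 values, 385 and 420, lie there too, beside a much lower 164 in KO naive 1.

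Further genes of the pathway, 62 in all and all tested, hold the other family members, caspases and their inhibitors, death receptors, p53 targets and regulators of MCL1. They include Bcl2a1a and Bcl2a1d, whose reads are not cleanly divided from those of the member Bcl2a1b, so their calls are not separate from its calls. After ONC in WT 7 rose and 2 fell (7.55% and 10.5% of all genes), with the largest changes in Bag1, a cochaperone that binds BCL2 (3.12 ± 0.88 SE, adjusted p = 0.0167), March5, a mitochondrial ubiquitin ligase (2.74 ± 0.50 SE, adjusted p = 5.71e-04), and Birc5, the inhibitor of apoptosis survivin that also serves cell division (2.66 ± 0.68 SE, adjusted p = 0.00994). After IOP elevation in WT 0 of 62 were called, and 10 had an unadjusted p under 0.05 (13.3% of all genes). In libraries labelled KO, 8 rose and 0 fell after IOP elevation (5.06% and 2.81% of all genes), led by Bcl2a1d (1.57), the BH3-only gene Bmf (1.56 ± 0.39 SE, adjusted p = 0.0246) and Bcl2a1a (1.44). After ONC 15 rose and 3 fell there (12.7% and 11% of all genes), led by Birc5 (2.67 ± 0.63 SE, adjusted p = 0.00393), Bcl2a1d (2.00) and Bcl2a1a (1.99). The median difference of the 62 was 0.33 after ONC in WT and 0.45 in libraries labelled KO, and -0.10 and 0.20 after IOP elevation.

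Between genotypes, 4 of the 62 were lower in naive libraries labelled KO and 0 higher (0.339% and 0.0702% of all genes). These were Bmf, which senses loss of attachment (-1.79 ± 0.39 SE, adjusted p = 0.0467), Pmaip1, the gene of the BH3-only protein NOXA that targets MCL1 (-1.71 ± 0.31 SE, adjusted p = 0.0155), the caspase gene Casp2 (-0.86 ± 0.19 SE, adjusted p = 0.0467) and Cflar, which encodes the caspase-8 inhibitor FLIP (-0.77 ± 0.16 SE, adjusted p = 0.0361) and was named after its values were seen. After IOP elevation and after ONC 0 were called, with 11 and 5 at an unadjusted p under 0.05 (21.1% and 9.36% of all genes). The interaction with IOP elevation was called for 8, all higher (4.85% of all genes called higher), led by Bmf (2.43 ± 0.56 SE, adjusted p = 0.0141), Bcl2a1a (1.84) and Bcl2a1d (1.83), and that with ONC for 0, with 10 at an unadjusted p under 0.05 (12.4% of all genes). These rest on the same naive libraries as the results on the members. Most of those labelled KO had a low microglia share and a high rod share, as given above. No fit with a covariate or with a library left out is given for these 62 genes.

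Over the 23 libraries, the genes whose log2 values followed a called member most closely were Cyba, a subunit of the phagocyte oxidase, Tmsb4x and Bcl2a1a for Bcl2a1b (Pearson r = 0.98 each) and Gabarap, Ethe1 and Ssr4 for Bax (0.96 each). Mcl1 was followed by AI413582, Fcf1 and Gm9999 (0.89, 0.89 and 0.89), Bid by Lyl1, Tagap and Wdsub1 (0.87, 0.86 and 0.85), and Bcl2l2 by Rabgap1l, Olfr102 and Gm48793 (0.86, 0.85 and 0.84). All these points share library makeup and depth, and Bcl2a1a also shares most of its sequence with Bcl2a1b.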

How the data were processed

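The authors quantified RNA-seq reads of sorted microglia with salmon against GRCm38, per the study's methods (the submitters' notes also name STAR and DESeq2), and deposited normalized counts, a signal value: reads per gene over the library's size factor. The values of all 23 libraries were whole multiples of 1 step (within 0.001), so reads were recovered for the count models. Groups came from the labels, and members and lists were chosen with earlier results of these data known. As the deposited values are normalized, log2(normalized count + 1) was the main measure, tested with limma 3.58.1 (R 4.3.3, trend, 6 groups, genes at 10 or more in at least 3 libraries, Benjamini-Hochberg). edgeR 4.0.16 and DESeq2 1.42.0 on recovered reads, other pseudocounts, filters and scalings, covariates and leaving out each library were alternatives; the summed copies, the microglia and Y chromosome covariates and the removal of 6 libraries were added after seeing the data. The procedure was tested on simulated data. Whether mice were shared between libraries is not given in the sources used here, so p-values measure the spread between libraries.

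Of the 35825 gene IDs, 34732 matched GENCODE M21 with their version, 704 without it and 389 not. Named in the text are the members, Spp1, at most 3 called pathway genes per comparison, the 3 genes most like each called member, the Bcl2a1 copies and genes whose exons overlap a member. Cflar was named besides these, for KO against WT in naive retinas. matplotlib 3.10.9 drew the figures and pandas 2.3.3 with numpy 2.4.6 made the tables (Python 3.11.15).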

Additional observations from a re-analysis of the deposited data

Results flagged for a closer look

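In 6 of the 50 combinations of a member and a group of 4 libraries, 1 library lay apart from the other three by Dixon's test, which chance alone gives in about 1 of 20. The high ones were Bcl2a1b in KO naive 3 (2405 against at most 959 in the others), Bbc3 in KO ONC 1 (265 against at most 50.4), Bax in KO IOP 3 (1348 against at most 1005), Bax in WT IOP 1 (1067 against at most 867) and Bcl2l1 in WT naive 1 (4443 against at most 3585). The low one was Mcl1 in KO IOP 1 (725 against at least 879). KO naive 3 is also the naive library labelled KO whose microglia share (3.51%) and rod share (1.22%) were near those of the WT naive libraries.

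The response to IOP elevation differed between libraries labelled KO and WT by limma's interaction term for Bid (1.06 ± 0.27 SE, adjusted p = 0.0206), Bcl2a1b (1.76 ± 0.50 SE, adjusted p = 0.0313) and Bcl2l2 (-1.90 ± 0.52 SE, adjusted p = 0.0280), each on the log2(normalized count + 1) scale. With the microglia covariate the terms were 0.53 (adjusted p = 0.549), 0.15 (adjusted p = 0.923) and -1.60 (adjusted p = 0.386).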

How the results depend on the processing

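Calls on libraries labelled KO depended most on the processing. Of the 10 members, the number called after IOP elevation in libraries labelled KO was 4, and 0 with the rod, microglia or Y chromosome covariate, the compared groups fitted alone or without the 6 libraries with Spp1 above 100. After ONC in libraries labelled KO it was 5, and 1 with the rod covariate, 0 with the microglia covariate and 0 without the 6 libraries. The interaction with IOP elevation went from 3 to 0 with any of these covariates or without the 6 libraries. For any difference among the 6 groups it went from 5 to 2 with the rod covariate, 1 with the microglia covariate and 2 without the 6 libraries. DESeq2 raised the count from 0 to 2 for KO against WT in naive retinas (Bcl2 and Bid), to 1 after IOP elevation (Bcl2l2, as with upper-quartile rescaling, 1) and to 1 for the interaction with ONC (Bid).

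Leaving out 1 library at a time gave 0 to 6 called members for IOP elevation in libraries labelled KO (0 without KO naive 2, 1 without KO naive 4, and 2 without KO naive 1, KO IOP 3 or KO IOP 4), 5 to 5 for ONC in libraries labelled KO, 2 to 3 for ONC in WT, and 0 to 0 for IOP elevation in WT and for KO against WT after ONC. It gave 0 to 2 for KO against WT in naive retinas (2 without KO naive 3), 0 to 1 after IOP elevation (1 without KO IOP 1), 0 to 4 for the interaction with IOP elevation (0 without WT IOP 1 or KO naive 2, and 1 without WT naive 3 or 4, WT IOP 4, KO naive 4 or KO IOP 3), 0 to 1 for that with ONC (1 without KO naive 3) and 5 to 6 for any difference.

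Over the 30 differences of single members and their 480 refits under the other alternatives, 408 kept direction and side of the threshold, 57 lost the call, 13 gained it and 2 turned sign. The latter were Bcl2l1 after ONC in libraries labelled KO (from 0.42 to -0.0051, adjusted p = 0.996) and Bcl2a1b in KO against WT naive (from -1.0 to 0.031, adjusted p = 0.994), both with the microglia covariate and neither called. Upper-quartile rescaling moved the median of all genes after ONC in WT from -0.10 to -0.21, and that of the interaction with IOP elevation from -0.08 to -0.19. Replicate numbers did not pair the libraries (median correlation of deviations 0.0046 over 55 same-number pairs, range -0.25 to 0.23). With the replicate number as a block, the number of called members was 3 after IOP elevation in libraries labelled KO, where Bax was lost at 0.69 (adjusted p = 0.0568), and no other call changed. The cause of these changes was not tested. Low values and the spread between libraries of a group limit Bak1 and Bbc3, which fell to 1.63 and 5.32 normalized counts in single libraries.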
